A study of Danio rerio with 16 samples.

Results

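Chaperones bind proteins that are not yet folded or have come unfolded, and different sets serve the cytosol, the mitochondria and the endoplasmic reticulum (ER). The genes described here were those of a table of 14500 genes whose zebrafish symbol begins with hsp (other than hspg2), dnaj, cct with a digit, tcp1, pdia, calr, canx, hyou1, bag1 to bag6, stip1 or ahsa1. There were 95 such genes. By textbook location 61 act in the cytosol or nucleus, 21 in the ER and 10 in mitochondria. The remaining 3 were not placed: tcp11l1 and tcp11l2, which matched by spelling and are not chaperonin subunits, and dnajc25. A further 27 reference genes that match the rule, among them the ER HSP70 gene hspa5, were not analysed here.

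The values came from RNA sequencing of adult zebrafish hearts. Groups were KO cryoinjury, WT cryoinjury, KO control and WT control, where KO stands for mutants of the telomerase gene tert carrying the hu3430 allele (labelled AB/hu3430) and WT for wild-type fish, all 6 to 9 months old. Cryoinjury, a freezing wound to the ventricle, was made 3 days before sampling. Each group held 4 libraries, each from 3 pooled hearts, so single fish cannot be told apart.

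Cytosolic HSP70 proteins take up clients brought by J proteins (the dnaj genes), HSP110 and BAG proteins exchange their nucleotide, and some clients pass on to HSP90 or to the CCT ring. In the ER, calnexin and calreticulin hold glycoproteins while protein disulfide isomerases form their disulfide bonds. In mitochondria, HSP70 pulls in and folds imported proteins, which the HSP60 and HSP10 chamber can fold further. Heart muscle is rich in small heat shock proteins, which hold unfolded proteins without using ATP.

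The deposited values are normalized units. Recovered reads over the listed genes numbered 5611576 to 8809769 per library in KO cryoinjury, 7377322 to 14831664 in WT cryoinjury, 5762597 to 7683445 in KO control and 6363268 to 9078183 in WT control. No chaperone gene was at 0 in any library, and 9 of the 95 had fewer than 20 reads in at least 1 library. The tert transcript itself read 6.25 to 6.84 units in KO cryoinjury, 1.99 to 5.16 in WT cryoinjury, 5.65 to 6.56 in KO control and 1.19 to 1.97 in WT control, with all 8 KO above all 8 WT libraries. The hu3430 allele is a point mutation, so this level does not test the loss of the protein. KO cryoinjury libraries 1 and 2 stood apart in the epithelial keratin gene krt5, at 337 and 887 units, against 12 and 75.4 in libraries 3 and 4 of that group and 4.68 to 67.4 in the other 12 libraries. Changes below are differences of log2(value + 1) with their standard error (SE) from limma, and a gene was called at an adjusted p under 0.05 over 14500 genes. Directions hold on the deposited scale, on which the median gene hardly moved. Scaling to library totals instead moved the median change of all genes to 0.20 in KO and 0.30 in WT hearts.

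After cryoinjury, the ER genes tended to be higher and the mitochondrial genes lower, while the cytosolic genes went both ways, also within families. In KO hearts 28 of the 95 genes rose and 24 fell, where 25.2% of all genes rose and 22.4% fell (47.6% in either direction). In WT hearts 18 rose and 32 fell, where 24.2% of all genes rose and 21.7% fell (45.9% in either direction). The same shares of all genes apply to the injury counts by family and list below, on the deposited scale. At an unadjusted p under 0.05 the numbers were 58 of 95 in KO hearts, against 53.9% of all genes, and 58 in WT hearts, against 52.3% of all genes. By compartment, 12 of 21 ER genes rose and 1 fell in KO hearts, with a median change of 0.43, and 11 rose and 1 fell in WT hearts, with a median of 0.35. Of the 10 mitochondrial genes none rose and 5 fell in KO hearts (median -0.46), and none rose and 7 fell in WT hearts (median -0.50). Of the 61 cytosolic genes 15 rose and 18 fell in KO hearts (median -0.08), and 6 rose and 23 fell in WT hearts (median -0.23). The median over all genes was -0.02 in KO and -0.01 in WT hearts. With library totals the calls were 36 higher and 16 lower in KO and 36 higher and 10 lower in WT hearts, and the cytosolic medians became 0.14 and 0.11. The median over all genes was then 0.20 in KO and 0.30 in WT hearts. Counts with library totals or with libraries left out, here and below, have no share of all genes beside them. They are therefore not read as particular to the chaperone genes. In that setting 3 mitochondrial genes were called lower in KO hearts (median -0.23) and 1 in WT hearts (median -0.16), so 6 of the 7 WT mitochondrial calls ended. Without KO cryoinjury libraries 1 and 2, the KO calls were 29 higher and 16 lower, and the KO cytosolic median was 0.01 and the KO mitochondrial median -0.38, with 4 mitochondrial genes lower. With library totals the ER median was 0.66 in KO and 0.70 in WT hearts, against 0.20 and 0.30 over all genes. That setting raises changes in general, so a positive sign there is no separate check. Without the 2 libraries the ER median was 0.39 in KO hearts.

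**Figure D1:**
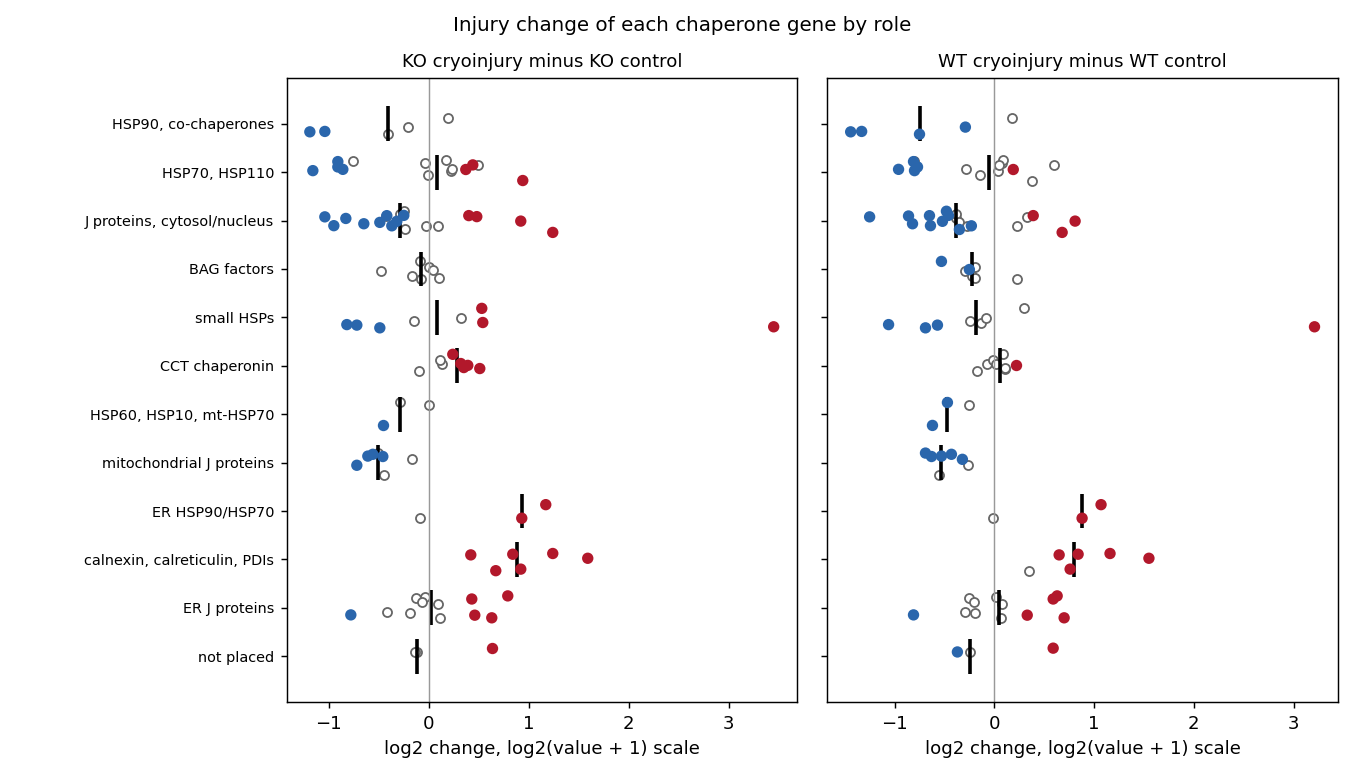
Change after cryoinjury (log2, on the log2(value + 1) scale) of each of the 95 chaperone genes, grouped by role, in KO hearts (left) and WT hearts (right). Filled points passed an adjusted p of 0.05 in limma (red higher, blue lower), open points did not, and black bars are medians. The point at far right in each panel is hspb9, at 3.45 in KO and 3.21 in WT.

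Several lists of cell type markers moved with injury as well, while others were mixed or had few calls. Of 4 matched cardiomyocyte genes (8 listed), 3 fell in both genotypes. The other gene differed by 0.10 in KO and 0.19 in WT hearts and was not called. With library totals 1 gene was called higher in each genotype, with 2 lower in KO and 3 lower in WT hearts. The summed level of the 4 genes was 28679 to 39390 units in KO cryoinjury, 31027 to 33319 in WT cryoinjury, 43529 to 57099 in KO control and 53411 to 60757 in WT control. Macrophage genes, 3 of 5 matched, all rose, with sums of 606 to 729 units in KO cryoinjury, 597 to 881 in WT cryoinjury, 262 to 313 in KO control and 251 to 359 in WT control. All 4 dividing-cell genes rose, with sums of 142 to 194 units in KO cryoinjury, 177 to 244 in WT cryoinjury, 31.2 to 34.7 in KO control and 27.1 to 61.1 in WT control. The 4 matched epicardium and fibroblast genes (5 listed) rose too, with sums of 1716 to 2197 units in KO cryoinjury, 1963 to 2198 in WT cryoinjury, 368 to 471 in KO control and 323 to 542 in WT control. Skin and epithelium genes, 4 of 5 matched, summed to 650 to 1770 units in KO cryoinjury, 538 to 776 in WT cryoinjury, 183 to 322 in KO control and 197 to 291 in WT control. Of these 4 genes, 2 were called higher in KO hearts, where all 4 changes were above 0. In WT hearts 1 was called higher and 3 were below 0, with changes from -0.78 to 1.45. No matched marker was at 0 in every library. In whole hearts, fewer cells of a type and less RNA per cell cannot be told apart, and the part of these shifts in the chaperone changes was not tested.

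Of the 6 foldase and lectin chaperone genes of the ER, all rose in KO hearts (median 0.88) and 5 in WT hearts (median 0.80). The disulfide isomerase gene pdia4 read 63.9, 92.2, 73.3 and 56.9 units in KO cryoinjury libraries 1 to 4, 90.1, 72.8, 78.6 and 73.1 in WT cryoinjury, 21.9, 23.6, 21 and 24.3 in KO control and 34.3, 24, 21.5 and 26 in WT control. All 8 cryoinjury libraries lay above all 8 control libraries, and the change was 1.59 (SE 0.14, limma adjusted p = 1.26e-07) in KO and 1.55 (SE 0.14, limma adjusted p = 1.63e-07) in WT hearts. Calreticulin, the soluble lectin chaperone that also buffers ER calcium, read 48.2, 41.8, 37.6 and 38.1 units in KO cryoinjury libraries 1 to 4, 55.1, 48.6, 47.3 and 45.3 in WT cryoinjury, 16.7, 18.8, 15.6 and 16.7 in KO control and 28.8, 21.2, 18 and 19 in WT control. Here too no injured library overlapped a control, with changes of 1.24 in KO and 1.16 in WT hearts (SE 0.13 each, limma adjusted p = 5.65e-07 and 1.02e-06). Its membrane-bound relative canx averaged 225 ± 30 units in KO cryoinjury, 241 ± 15.2 in WT cryoinjury, 118 ± 6.44 in KO control and 142 ± 10.7 in WT control (SD, n = 4), changes of 0.92 and 0.76 (limma adjusted p = 3.09e-07 and 2.19e-06).

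Of the other isomerase genes, pdia5 rose by 0.84 in KO and 0.84 in WT hearts (limma adjusted p = 1.18e-05 and 1.04e-05). The gene pdia7 rose by 0.42 in KO and 0.65 in WT hearts (limma adjusted p = 0.0132 and 0.000504), and the KO call ended without KO cryoinjury library 3 (adjusted p = 0.0534). The gene pdia6 read 81, 88.8, 56.9 and 57.1 units in KO cryoinjury libraries 1 to 4, 50.7, 53, 83.1 and 68.3 in WT cryoinjury, 44.7, 41.6, 44.1 and 43.3 in KO control and 51.1, 44.1, 53.4 and 46.8 in WT control. Its KO cryoinjury libraries 1 and 2, the pair with high krt5, were the highest of that group. It rose by 0.67 in KO hearts (SE 0.15, limma adjusted p = 0.00179), and without those 2 libraries the change was 0.39 (adjusted p = 0.0609). In WT hearts pdia6 differed by 0.35 and did not pass (limma adjusted p = 0.0709). It was called higher there with library totals (0.70, limma adjusted p = 0.00148) and with DESeq2 (0.38, adjusted p = 0.0499). The WT change also passed in limma without KO cryoinjury libraries 1 and 2 (adjusted p = 0.0315) and without WT cryoinjury library 1 or 2 (0.0305 and 0.0442).

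Of the 3 ER relatives of HSP90 and HSP70, 2 rose in each genotype. The gene hsp90b1 encodes GRP94, the HSP90 of the ER, and read 194, 265, 228 and 178 units in KO cryoinjury libraries 1 to 4, 264, 207, 223 and 234 in WT cryoinjury, 94.7, 93.8, 97.7 and 91.8 in KO control and 137, 92.4, 117 and 96.8 in WT control. Every injured library was above every control library, with changes of 1.17 in KO (SE 0.13, limma adjusted p = 1.2e-06) and 1.07 in WT hearts (SE 0.13, limma adjusted p = 2.71e-06). The gene hyou1, for the large HSP70-like protein GRP170, averaged 70.5 ± 10.3 units in KO cryoinjury, 81.1 ± 9.31 in WT cryoinjury, 36.4 ± 3.18 in KO control and 43.8 ± 7.4 in WT control (SD, n = 4). Its changes were 0.93 in KO and 0.88 in WT hearts (limma adjusted p = 1.07e-05 and 1.62e-05). The third gene of the group, hspa13, differed by -0.09 and -0.01 and did not pass (limma adjusted p = 0.727 and 0.963).

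Among 12 J protein genes of the ER, 4 rose and 1 fell in each genotype, with medians of 0.03 in KO and 0.05 in WT hearts. Those that rose are soluble partners of the ER HSP70. The gene dnajb11 read 38.3, 47.1, 44.6 and 32.1 units in KO cryoinjury libraries 1 to 4, 43.2, 40.4, 40.1 and 42.7 in WT cryoinjury, 20.4, 22.6, 20.7 and 27.8 in KO control and 29.5, 22.9, 30.2 and 24 in WT control, a separation without overlap between injured and control hearts (changes of 0.79 and 0.63; limma adjusted p = 6.66e-05 and 0.000543). The 2 copies of dnajc3, which as P58IPK also restrains the kinase PERK, rose by 0.63 (dnajc3a) and 0.43 (dnajc3b) in KO hearts and by 0.70 and 0.59 in WT hearts, with limma adjusted p of at most 0.00372. The disulfide reductase gene dnajc10 rose by 0.46 in KO and 0.33 in WT hearts (limma adjusted p = 0.00408 and 0.0311), and the WT call ended without WT control library 2 (adjusted p = 0.119), WT cryoinjury library 1 (0.0648) or WT cryoinjury library 4 (0.0784). In contrast, dnajc18 was the ER gene that fell. It read 23.8, 21.1, 21.2 and 26.5 units in KO cryoinjury libraries 1 to 4, 18.8, 19.4, 20.5 and 19 in WT cryoinjury, 42.9, 37.8, 39.6 and 40.4 in KO control and 36.1, 33.7, 38.2 and 31.3 in WT control, and both genotypes had all injured libraries below all controls (changes of -0.78 and -0.81; limma adjusted p = 2.11e-06 and 1.13e-06). Neither copy of dnajb9, the ERdj4 gene, passed, with changes of 0.07 to 0.11 (limma adjusted p from 0.512 to 0.684).

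Other ER folding genes moved the same way. A list of ER folding enzymes outside the symbol rule had 16 measured genes of 27 names, of which 13 rose in KO hearts (median 0.90) and 12 in WT hearts (median 0.80), with none lower. The prolyl isomerase genes fkbp9, fkbp7 and ppib rose by 2.15, 1.81 and 0.91 in KO hearts and by 2.15, 1.71 and 0.76 in WT hearts, and the thioredoxin-domain gene txndc5 by 1.44 and 1.57 (limma adjusted p of at most 8.27e-08 for these 4). Of 19 measured genes of ER translocation and degradation, 7 rose and 1 fell in each genotype. With library totals 14 were higher in KO and 15 in WT hearts and none was lower in either. The mannosidase-like gene edem1 and the translocon gene sec61a1 (ENSDARG00000005675) rose by 0.82 and 0.83 in KO and by 0.95 and 0.69 in WT hearts. Of 8 measured sensors and transcription factors of the unfolded protein response, 2 rose and none fell in KO hearts, and 1 rose and 3 fell in WT hearts. With library totals the counts were 3 higher in KO and 5 higher in WT hearts, with none lower in either, so the WT falls below were not called there. The transcription factor gene atf6 rose by 0.32 in KO and 0.45 in WT hearts (limma adjusted p = 0.00546 and 0.000372). The gene xbp1 rose by 0.70 in KO hearts (limma adjusted p = 5.3e-05) and differed by 0.27 in WT hearts (limma adjusted p = 0.0531). Its interaction was 0.43 and did not pass, and its KO control differed from WT control by -0.49. In WT hearts the genes ddit3, ppp1r15a and atf4b, of the PERK arm, fell by 0.53, 0.36 and 0.29 (limma adjusted p = 0.00189, 0.0418 and 0.0229).

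**Figure D2:**
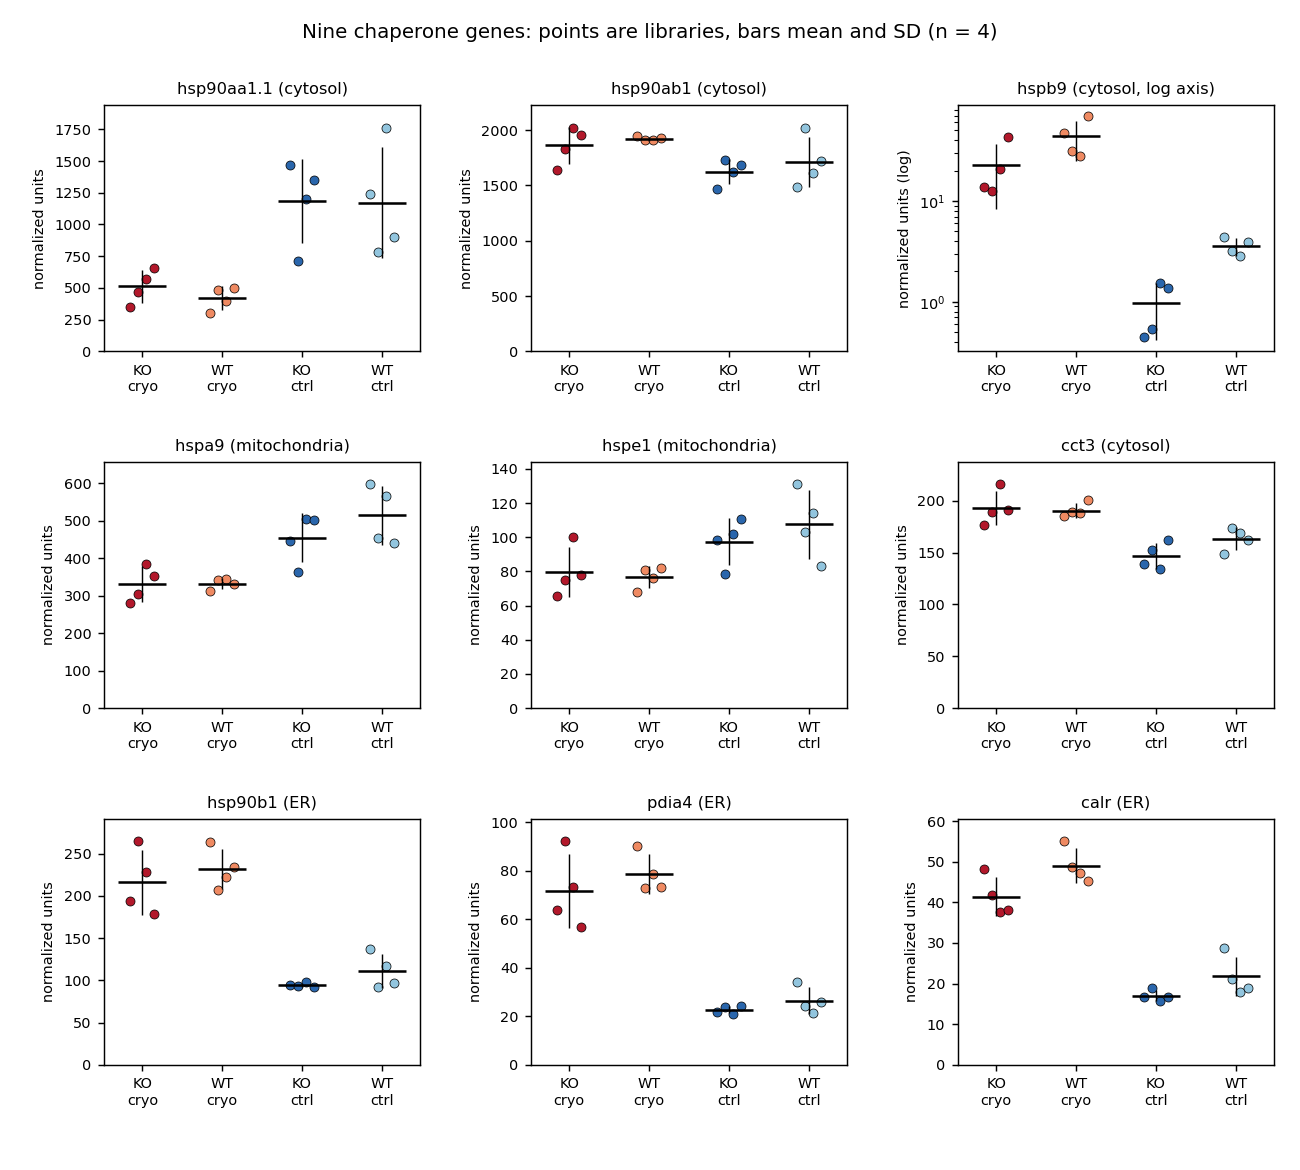
Normalized units of 9 chaperone genes in every library, by group (KO cryoinjury, WT cryoinjury, KO control, WT control). Points are libraries, horizontal lines are means and vertical lines are SD (n = 4), and hspb9 is on a log axis. The ER genes hsp90b1, pdia4 and calr have all injured libraries above all controls, hsp90aa1.1 has all injured libraries below all controls, and hsp90ab1 ranges from 1469 to 2023 units with overlap between the groups.

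Cytosolic HSP90 genes moved apart. The stress-inducible gene hsp90aa1.1, which in zebrafish is needed to fold myosin in skeletal muscle, read 353, 465, 572 and 658 units in KO cryoinjury libraries 1 to 4, 300, 483, 393 and 500 in WT cryoinjury, 1466, 713, 1201 and 1351 in KO control and 1242, 783, 1763 and 900 in WT control. Every injured library lay below every control library, although the controls spread widely, and the change was -1.19 (SE 0.26, limma adjusted p = 0.00126) in KO and -1.44 (SE 0.26, limma adjusted p = 0.000238) in WT hearts. A second HSP90 alpha gene, hsp90aa1, read 64.4, 69.7, 68.3 and 74.1 units in KO cryoinjury libraries 1 to 4, 54.8, 48.5, 42.8 and 40.3 in WT cryoinjury, 189, 151, 129 and 113 in KO control and 160, 88.3, 141 and 96.2 in WT control. It fell by 1.04 in KO and by 1.33 in WT hearts (SE 0.17 each, limma adjusted p = 0.000105 and 7.88e-06), also without overlap. The constitutive gene hsp90ab1 averaged 1862 ± 165 units in KO cryoinjury, 1923 ± 17 in WT cryoinjury, 1625 ± 113 in KO control and 1711 ± 229 in WT control (SD, n = 4). Its changes of 0.19 and 0.18 did not pass (limma adjusted p = 0.108 and 0.144), but it was called higher with library totals (0.43 in KO and 0.53 in WT, adjusted p = 0.00105 and 0.000126). It was also called higher in KO hearts without KO cryoinjury libraries 1 and 2 (0.29, adjusted p = 0.0488) and in WT hearts without WT control library 2 (0.26, adjusted p = 0.0281). Within a library the ratio of hsp90aa1.1 to hsp90ab1 values was 0.214 to 0.335 in KO cryoinjury, 0.154 to 0.259 in WT cryoinjury, 0.413 to 0.998 in KO control and 0.387 to 1.09 in WT control. That ratio does not depend on the scaling, and the pair was chosen after the values were seen. Sequence likeness between the 2 HSP90 alpha genes could have let the counting assign reads of one to the other.

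Of the HSP90 helpers, the adaptor gene stip1, whose product joins HSP70 to HSP90, differed by -0.21 in KO hearts (limma adjusted p = 0.0773) and fell by 0.29 in WT hearts (limma adjusted p = 0.018). With library totals the WT value was 0.07 and did not pass (adjusted p = 0.533), and the call also ended without WT control library 1 or 3 (0.0527 and 0.0716). The gene ahsa1, for the activator of the HSP90 ATPase, fell by 0.75 in WT hearts (SE 0.29, limma adjusted p = 0.0455) and differed by -0.41 in KO hearts (limma adjusted p = 0.263). The WT call of ahsa1 ended without any of 10 single libraries, with an adjusted p of up to 0.129 without WT control library 1. In the list of heat shock factors and cytosolic co-chaperones, with 12 of 26 names measured, 3 rose and 5 fell in KO hearts and 1 rose and 4 fell in WT hearts. With library totals the balance turned, with 4 higher and 3 lower in KO hearts and 5 higher and 1 lower in WT hearts. Of the falls that follow, no more than 3 in KO and 1 in WT hearts were thus called there. The myosin chaperone gene unc45b fell by 0.99 in KO and by 0.95 in WT hearts, and the heat shock factor genes hsf1 and hsf2 fell by 0.43 and 0.66 in KO and by 0.31 and 0.48 in WT hearts. The limma adjusted p for these 3 genes were at most 0.0417. The immunophilin gene fkbp5 rose by 2.24 in KO hearts (limma adjusted p = 0.000289) and differed by 0.45 in WT hearts (limma adjusted p = 0.404). Its interaction was 1.79 and did not pass, and its KO control differed from WT control by -2.09. The gene ttc4 rose by 0.67 and 0.76, and the HSP90-binding immunophilin gene fkbp4 fell by 0.43 and 0.29.

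The HSP70 family showed both directions within 14 genes, with 3 higher and 4 lower in KO hearts and 1 higher and 4 lower in WT hearts. Over all genes 25.2% rose and 22.4% fell in KO hearts, and 24.2% rose and 21.7% fell in WT hearts. The constitutive gene hspa8 (ENSDARG00000068992) read 1830, 2143, 2328 and 2166 units in KO cryoinjury libraries 1 to 4, 1870, 2079, 1916 and 2213 in WT cryoinjury, 1527, 1337, 1499 and 1928 in KO control and 2119, 1539, 2284 and 1953 in WT control. KO control had the lowest mean of the 4 groups, with its library 4 inside the range of the injured hearts, and the gene rose by 0.44 in KO hearts (SE 0.13, limma adjusted p = 0.00992), while in WT hearts it differed by 0.05 (limma adjusted p = 0.799). The difference between those responses was 0.39 and did not pass (interaction limma adjusted p = 0.601). The second hspa8 gene (ENSDARG00000037403) rested on 2 to 31 reads per library and did not pass in either genotype.

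Inducible HSP70 genes differed among themselves. The heat-inducible gene hsp70l read 38.6, 61, 60.4 and 62.2 units in KO cryoinjury libraries 1 to 4, 56.2, 68.7, 47.5 and 37.5 in WT cryoinjury, 151, 98.3, 83.4 and 80.6 in KO control and 129, 86.4, 125 and 74.6 in WT control. Injured and control libraries did not overlap within either genotype, and the change was -0.86 in KO (SE 0.23, limma adjusted p = 0.00496) and -0.96 in WT hearts (SE 0.23, limma adjusted p = 0.0021). The KO call ended when KO cryoinjury libraries 1 and 2 were left out (-0.69, adjusted p = 0.0523). Its relative hsp70.1 fell by 1.16 in KO and by 0.80 in WT hearts (limma adjusted p = 0.000798 and 0.0118), with the WT call ended by library totals (-0.46, adjusted p = 0.121). The gene hsp70.3 had changes of -0.01 and -0.14 (SE 0.40 each) and hspa2 of -0.76 and -0.81 (SE 0.41 each), and neither passed. The gene hspa1b rose by 0.94 in KO hearts (SE 0.36, limma adjusted p = 0.0406), but its 4 KO control libraries read 18.6, 7.67, 18.8 and 19.8 units, and the call ended without the lowest of them, library 2 (adjusted p = 0.151), as it did without KO cryoinjury library 2, 3 or 4 (0.0763, 0.133 and 0.102). The genes hsp70l, hsp70.1, hsp70.3 and hspa1b are close copies whose reads the counting may have split, so their separate values are uncertain.

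Among the exchange factors of the HSP110 family, hsph1 read 6.56, 5.49, 4.84 and 5.12 units in KO cryoinjury libraries 1 to 4, 4.69, 6.89, 5.79 and 4.02 in WT cryoinjury, 14.3, 10.1, 10.2 and 10.4 in KO control and 10.3, 9.88, 10.3 and 8.29 in WT control. Each genotype had all injured libraries below all its controls (changes of -0.91 and -0.77; limma adjusted p = 0.000106 and 0.000477). By contrast hspa4 (ENSDARG00000018989), of the same family, rose by 0.37 in KO and 0.19 in WT hearts (SE 0.07 each, limma adjusted p = 0.000458 and 0.0353). The WT call ended without any of 5 single WT libraries, with an adjusted p of up to 0.118 without WT cryoinjury library 4. The gene hspa12b, an atypical HSP70 of endothelial cells in mammals, averaged 67.8 ± 8.96 units in KO cryoinjury, 59.6 ± 11.1 in WT cryoinjury, 128 ± 10.9 in KO control and 105 ± 14.7 in WT control (SD, n = 4). It fell by 0.91 and 0.81 (limma adjusted p = 2.31e-05 and 6.81e-05). Of 5 listed endothelial markers 2 were matched, cdh5 and tie1, with sums of 144 to 184 units in KO cryoinjury, 164 to 221 in WT cryoinjury, 184 to 234 in KO control and 208 to 268 in WT control. The gene tie1 fell by 0.48 and 0.40, while cdh5 differed by -0.21 in KO and -0.16 in WT hearts and did not pass. Their part in the hspa12b change was not tested.

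Most J proteins of the cytosol and nucleus that were called were lower, with 4 of 19 higher and 9 lower in KO hearts (median -0.29) and 3 higher and 10 lower in WT hearts (median -0.38). With library totals the counts were 5 and 4 in KO and 5 and 2 in WT hearts. The gene dnaja, a type A partner of HSP70, read 22.3, 28.3, 32.7 and 33.6 units in KO cryoinjury libraries 1 to 4, 20.2, 26.2, 21.8 and 26.3 in WT cryoinjury, 66.6, 43.9, 68.9 and 66.9 in KO control and 60.7, 38.2, 80.1 and 57 in WT control. All injured libraries were below all controls, and dnaja fell by 1.04 in KO and by 1.25 in WT hearts (limma adjusted p = 0.000263 and 4.35e-05). The gene dnajb6b, of a family that keeps muscle proteins from aggregating in humans, averaged 85.1 ± 7.98 units in KO cryoinjury, 81 ± 3.87 in WT cryoinjury, 134 ± 11.5 in KO control and 144 ± 10.3 in WT control (SD, n = 4), falls of 0.65 and 0.82 (limma adjusted p = 7.43e-06 and 5.42e-07). Its copy dnajb6a fell less, by 0.25 and 0.46, and the within-library ratio of dnajb6b to dnajb6a values was 2.06 to 2.25 in KO cryoinjury, 2.13 to 2.32 in WT cryoinjury, 2.63 to 2.95 in KO control and 2.53 to 3.19 in WT control. The dnajb6a calls ended with library totals in both genotypes (adjusted p = 0.844 in KO and 0.22 in WT), and in KO hearts without KO cryoinjury library 1 (0.0507). That pair, too, was chosen after the values were seen. The gene dnajc12 fell by 0.95 in KO and by 0.64 in WT hearts (limma adjusted p = 5.41e-05 and 0.00187), with the WT call ended by library totals (-0.30, adjusted p = 0.104). The classical HSP40 gene dnajb1b fell by 0.83 in KO hearts (limma adjusted p = 0.00139), while its WT change was -0.38 (limma adjusted p = 0.102) and the interaction did not pass (limma adjusted p = 0.683).

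Also called lower in both genotypes were dnaja1, dnaja2 and dnajb2, with changes from -0.65 to -0.23. The KO call of dnaja1 ended without any of 6 single KO libraries (adjusted p of up to 0.141 without KO control library 1), and that of dnajb2 without any of 5 (up to 0.102 without KO control library 1). Both KO calls also ended without KO cryoinjury libraries 1 and 2 (adjusted p = 0.175 and 0.164). The WT call of dnaja2 ended without WT control library 4 or WT cryoinjury library 4 (0.0646 and 0.0753). With library totals none of these 3 genes was called in either genotype. In KO hearts dnajc27 fell by 0.49, and in WT hearts dnajc24, which takes part in modifying elongation factor 2, fell by 0.86, dnajc8, of the spliceosome, by 0.48 and dnajc5ga by 0.35. The dnajc27 call ended without KO control library 3 (adjusted p = 0.0639), KO cryoinjury library 2 (0.0765) or KO cryoinjury library 4 (0.053), and the dnajc5ga call without WT control library 1 (0.0708) or WT cryoinjury library 1 (0.0524). All 4 of these calls ended with library totals. There, dnaja2 and dnajc5ga were at 0.13 and 0.00 in WT hearts. The J protein genes that rose were fewer. The gene dnajc5 encodes cysteine string protein, a vesicle chaperone, and read 44.1, 37.3, 33.9 and 35.1 units in KO cryoinjury libraries 1 to 4, 43.5, 48.5, 35.7 and 36.8 in WT cryoinjury, 19.8, 15.8, 18.9 and 23.5 in KO control and 21.6, 24.4, 21.1 and 24.4 in WT control, again with no overlap between injured and control hearts. It rose by 0.92 in KO and 0.81 in WT hearts (SE 0.12 each, limma adjusted p = 1.2e-05 and 3.97e-05). Its relative dnajc5gb rose by 0.40 and 0.39 (limma adjusted p = 0.00707 and 0.00725), and the KO call ended without KO cryoinjury libraries 1 and 2 (0.27, adjusted p = 0.115). The gene dnajb5 rose by 1.24 in KO and 0.68 in WT hearts (limma adjusted p = 0.000702 and 0.0371). Its KO control libraries read 6.75, 2.29, 6.25 and 4.71 units, of which library 2 held 17 reads, and the WT call ended without any of 6 single WT libraries (adjusted p of up to 0.0943 without WT control library 2). The ribosome-associated J protein gene dnajc2 rose by 0.48 in KO hearts (limma adjusted p = 0.0085) and differed by 0.33 in WT hearts (limma adjusted p = 0.0591).

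The BAG genes, whose products release clients from HSP70, were mostly without a call, with none of 7 in KO hearts and 2 lower in WT hearts. Those 2 were bag2 (-0.53, limma adjusted p = 0.0294) and bag6 (ENSDARG00000075892; -0.25, limma adjusted p = 0.0254). Neither was called with library totals, where bag6 was at 0.10 and bag2 at -0.18, and each lost its call without any of 5 single WT libraries (adjusted p of up to 0.0972 for bag2 without WT control library 3, and 0.0919 for bag6 without the same library). The gene bag3, which with hspb8 clears damaged filament proteins in muscle, read 191, 203, 290 and 303 units in KO cryoinjury libraries 1 to 4, 292, 272, 280 and 271 in WT cryoinjury, 239, 193, 262 and 284 in KO control and 359, 284, 317 and 317 in WT control. In KO cryoinjury, libraries 1 and 2 were well below 3 and 4, and the change was 0.00 in KO (limma adjusted p = 0.99) and -0.19 in WT hearts (limma adjusted p = 0.285).

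The single largest change among the 95 genes was in a small heat shock protein gene. This gene, hspb9, encodes a small heat shock protein known from testis in mammals, and it was low in both control groups. It held 90, 87, 123 and 388 reads in KO cryoinjury libraries 1 to 4, 402, 329, 282 and 1146 in WT cryoinjury, 3, 4, 10 and 7 in KO control and 25, 24, 22 and 28 in WT control. It read 13.7, 12.6, 20.5 and 43.2 units in KO cryoinjury libraries 1 to 4, 47.1, 31.1, 27.7 and 68.7 in WT cryoinjury, 0.45, 0.539, 1.52 and 1.37 in KO control and 4.42, 3.16, 2.83 and 3.93 in WT control. All injured libraries lay above all controls, every KO control library lay below every WT control library, and the 2 injured groups overlapped. The change after injury was 3.45 in KO (SE 0.33, limma adjusted p = 2.89e-07) and 3.21 in WT hearts (SE 0.33, limma adjusted p = 6.03e-07), values that understate the fold of so low a gene. The interaction was 0.24 and did not pass (limma adjusted p = 0.921).

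Of the 8 genes grouped with the small heat shock proteins, 3 rose and 3 fell in KO hearts, and 1 rose and 3 fell in WT hearts. The 3 that fell were hspb6, hspb2 and hspb3, small heat shock proteins of muscle. The gene hspb6 read 439, 493, 746 and 711 units in KO cryoinjury libraries 1 to 4, 640, 479, 784 and 494 in WT cryoinjury, 1246, 794, 1090 and 1047 in KO control and 1247, 930, 1879 and 1045 in WT control, and fell by 0.82 in KO and by 1.06 in WT hearts (SE 0.22 each, limma adjusted p = 0.00569 and 0.000775). Injured and control libraries did not overlap, but without KO cryoinjury libraries 1 and 2, the lowest of their group, the KO change was -0.50 and did not pass (adjusted p = 0.127). The gene hspb3 fell by 0.72 and 0.57 (limma adjusted p = 4.53e-05 and 0.000415), with the WT call ended by library totals (adjusted p = 0.0786). Its partner hspb2 fell by 0.49 and 0.69 (limma adjusted p = 0.0269 and 0.00326), with the KO call lost without the same 2 libraries (-0.23, adjusted p = 0.373) and without any of 4 single KO libraries (up to 0.0967 without KO control library 1). With library totals hspb2 was called in neither genotype (adjusted p = 0.189 in KO and 0.0756 in WT). Beside these, the summed cardiomyocyte markers of KO cryoinjury spanned 28679 to 39390 units, and their part was not tested.

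The gene hspb1, whose product protects actin filaments, differed by -0.15 in KO and -0.24 in WT hearts and did not pass (limma adjusted p = 0.3 and 0.0927). The WT change passed in limma with the replicate number as a block (adjusted p = 0.0384) and with the 8 WT libraries alone (0.0464). It also passed without KO cryoinjury libraries 1 and 2 (0.041) or without WT control library 1 (0.0497). With library totals the WT change of hspb1 was 0.11 and did not pass (limma adjusted p = 0.351). The gene hspb8 read 279, 240, 419 and 465 units in KO cryoinjury libraries 1 to 4, 427, 423, 417 and 454 in WT cryoinjury, 241, 158, 251 and 310 in KO control and 354, 312, 344 and 390 in WT control. It rose by 0.53 in KO hearts (limma adjusted p = 0.031), with a call that ended with the 8 KO libraries alone in the fit (adjusted p = 0.0881) and without 4 single KO libraries (up to 0.123 without KO control library 2), and differed by 0.30 in WT hearts (limma adjusted p = 0.217). In WT hearts it was called with the 8 WT libraries alone (adjusted p = 0.00973) and with library totals (0.66, adjusted p = 0.0033). Also in KO hearts, hspb9l rose by 0.54 (limma adjusted p = 0.0402), which ended with the 8 KO libraries alone (adjusted p = 0.0872) and without 4 single KO libraries (up to 0.154 without KO control library 2). It read 1179, 1021, 1602 and 1926 units in KO cryoinjury libraries 1 to 4, 1274, 1298, 1356 and 1595 in WT cryoinjury, 873, 640, 1152 and 1284 in KO control and 1305, 1302, 1794 and 1663 in WT control, and KO control libraries 1 and 2 were the lowest of all 16. The last of the 8, hspbap1, encodes a protein that binds hspb1 rather than a small heat shock protein, and it did not pass in either genotype. Of the genes not placed, dnajc25 rose by 0.63 in KO and 0.59 in WT hearts (limma adjusted p = 0.00285 and 0.00451), and tcp11l2 fell by 0.37 in WT hearts, but was at -0.01 there with library totals.

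**Figure D3:**
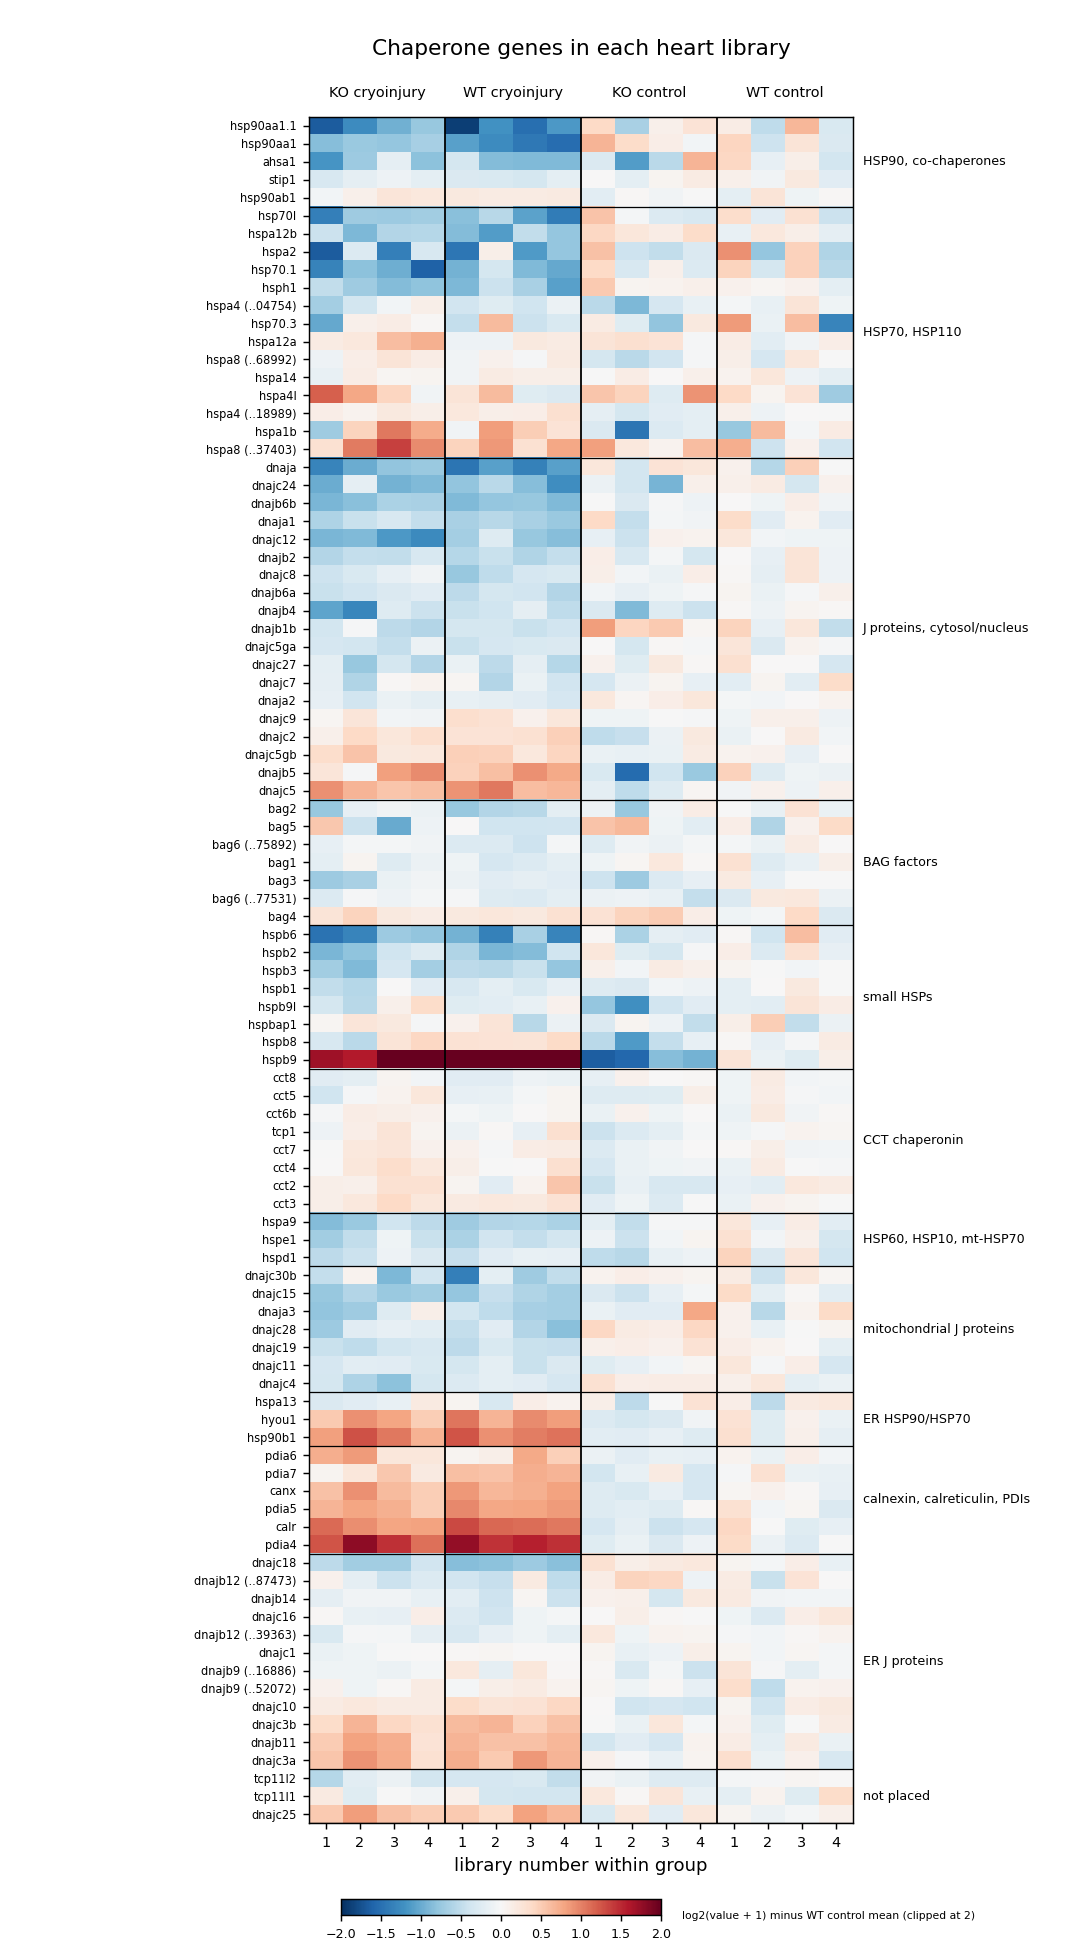
Each of the 95 chaperone genes (rows, grouped by role) in each of the 16 libraries (columns), as log2(value + 1) minus the mean of the 4 WT control libraries, with colours clipped at 2 in either direction. The pdia4, pdia5, calr and canx rows are red in all 8 cryoinjury libraries, the hspb9 row is deep red after injury and blue in KO control, and hsp90aa1.1 and hsp90aa1 are blue in all 8 cryoinjury libraries. Genes that share a symbol carry the last digits of their identifier.

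CCT, the ring that folds actin and tubulin, had smaller changes. In KO hearts 5 of the 8 subunit genes rose (median 0.28), and in WT hearts 1 rose (median 0.06). The gene cct3 read 177, 189, 216 and 191 units in KO cryoinjury libraries 1 to 4, 185, 189, 188 and 201 in WT cryoinjury, 139, 153, 134 and 162 in KO control and 149, 174, 169 and 162 in WT control. It rose by 0.39 in KO and 0.22 in WT hearts (SE 0.08 each, limma adjusted p = 0.000651 and 0.0304), and the WT call ended without WT control library 1 or 4 (adjusted p = 0.0954 and 0.0605) or WT cryoinjury library 2 or 4 (0.0533 and 0.082). In KO hearts cct2 rose by 0.51, cct4 by 0.35, tcp1 (the first subunit) by 0.32 and cct7 by 0.24, with limma adjusted p of 0.00709, 0.00565, 0.021 and 0.0186. In WT hearts these 4 differed by 0.11, 0.11, 0.02 and 0.09 and did not pass. For each of these 4 genes KO control had the lowest mean of the groups. The means of tcp1 were 162 units in KO cryoinjury, 155 in WT cryoinjury, 130 in KO control and 152 in WT control. The KO call of cct7 ended without KO control library 1 or KO cryoinjury library 2 or 3 (adjusted p = 0.0711, 0.0543 and 0.0596) and that of tcp1 without KO control library 1 or KO cryoinjury library 3 (0.0761 and 0.0711). The genes cct5, cct6b and cct8 did not pass in either genotype, with changes from -0.17 to 0.13. The difference between genotypes in the response did not pass for any subunit (interaction 0.07 to 0.40, limma adjusted p of at least 0.638). With library totals, 7 of the 8 were called higher in KO and 7 in WT hearts. Of 13 measured genes of prefoldin and the tubulin folding cofactors, which hand clients to or take them from CCT, 3 rose and 2 fell in KO hearts and 2 rose and 2 fell in WT hearts. With library totals 5 were higher in KO and 8 in WT hearts and none was lower in either, so the falls that follow were not called there. In WT hearts pfdn2 and pfdn5 rose by 0.56 and 0.42 and txndc9 and tbcb fell by 0.24 each, and in KO hearts their changes were 0.17, 0.03, -0.03 and -0.30, of which tbcb passed.

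No mitochondrial chaperone gene rose after injury. The mitochondrial HSP70 gene hspa9 read 279, 305, 385 and 353 units in KO cryoinjury libraries 1 to 4, 311, 341, 344 and 330 in WT cryoinjury, 447, 364, 504 and 501 in KO control and 597, 453, 567 and 441 in WT control. Each WT injured library was below every WT control, whereas KO cryoinjury library 3 reached above KO control library 2. It fell by 0.46 in KO and by 0.62 in WT hearts (SE 0.12 each, limma adjusted p = 0.00614 and 0.000539), and the KO call ended without KO cryoinjury libraries 1 and 2 (-0.29, adjusted p = 0.122) and with library totals (-0.22, adjusted p = 0.0977). The HSP10 gene hspe1 fell by 0.47 in WT hearts (limma adjusted p = 0.013) and differed by -0.29 in KO hearts (limma adjusted p = 0.103), and the WT call ended without WT control library 1 (adjusted p = 0.0524) and with library totals (-0.11, adjusted p = 0.489). The HSP60 gene hspd1 read 102, 108, 137 and 120 units in KO cryoinjury libraries 1 to 4, 106, 125, 132 and 131 in WT cryoinjury, 103, 99.1, 131 and 136 in KO control and 201, 119, 173 and 111 in WT control, and its changes of 0.00 and -0.25 did not pass (limma adjusted p = 0.984 and 0.232). The hspd1 and hspe1 genes are neighbours on chromosome 9 of the RefSeq annotation, and the within-library ratio of hspd1 to hspe1 values was 1.36 to 1.55 in KO cryoinjury, 1.55 to 1.73 in WT cryoinjury, 1.04 to 1.29 in KO control and 1.16 to 1.53 in WT control.

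Of 7 J protein genes of mitochondria, 4 fell in KO hearts (median -0.51) and 5 in WT hearts (median -0.53). The genes dnajc19 and dnajc15, which stimulate HSP70 at the inner membrane import channel, fell by 0.56 and 0.46 in KO and by 0.43 and 0.63 in WT hearts (limma adjusted p of at most 0.0048). The gene dnajc28 fell by 0.61 and 0.53 (limma adjusted p = 0.00378 and 0.00962). The gene dnajc4 read 16.8, 13.9, 11.8 and 16.7 units in KO cryoinjury libraries 1 to 4, 17.7, 18.8, 18.4 and 17.1 in WT cryoinjury, 27.2, 24, 24.2 and 24.1 in KO control and 23.3, 25.7, 18.8 and 19.7 in WT control. It fell by 0.72 in KO hearts (limma adjusted p = 7.19e-05), where all injured libraries were below all controls, and differed by -0.26 in WT hearts (limma adjusted p = 0.0787). The interaction for dnajc4 was -0.46, with the smallest unadjusted p of the 95 genes (0.0117), and did not pass (limma adjusted p = 0.509). With library totals, 3 of the 7 were called lower in KO hearts and none in WT hearts, with medians of -0.33 and -0.21. In WT hearts dnajc11 fell by 0.32 (limma adjusted p = 0.021), and in KO hearts it differed by -0.17 (limma adjusted p = 0.21), with values of 0.06 in KO and 0.03 in WT hearts under library totals. The WT call also ended without WT control library 1 or 3 (adjusted p = 0.0794 and 0.0684), without WT cryoinjury library 3 (0.0631) and with the 8 WT libraries alone (0.0503). The low gene dnajc30b rested on 6 to 35 reads per library and fell by 0.69 in WT hearts (limma adjusted p = 0.0252), a call that ended without WT cryoinjury library 1 (adjusted p = 0.103) or WT control library 1, 3 or 4 (0.062, 0.0717 and 0.0513).

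Genes that act beside these chaperones were mostly called lower on the deposited scale. Of 19 measured genes of mitochondrial import, the organelle's HSP90 and its proteases, KO hearts had 11 lower and 1 higher (median -0.33), and WT hearts 13 lower and 1 higher (median -0.40). With library totals there were 3 lower and 3 higher in KO hearts (median -0.10) and 5 lower and 1 higher in WT hearts (median -0.05). The protease genes afg3l2 and spg7 fell by 0.64 and 0.59 in KO and by 0.79 and 0.67 in WT hearts (limma adjusted p of at most 4.59e-06). The mitochondrial HSP90 gene trap1 fell by 0.38 and 0.65 (limma adjusted p = 0.0124 and 0.000195), and the import channel gene timm23a by 0.43 and 0.54. The exception was the protease gene htra2, which rose by 1.04 in KO and 0.65 in WT hearts (limma adjusted p = 0.000165 and 0.00706).

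Between genotypes, no chaperone gene passed the threshold. In control hearts limma called none of the 95, where 1.48% of all genes were called and 1.08% were called lower. At an unadjusted p under 0.05 there were 18 of the 95, where 15.9% of all genes passed. In injured hearts it called none, where 0.441% of all genes were called. At an unadjusted p under 0.05 there were 7 of the 95, where 12.2% of all genes passed. The edgeR test on the recovered reads also called none in either status, with 17 and 7 at an unadjusted p under 0.05. DESeq2 called 1 gene, hspb9, lower in KO control hearts and none in injured hearts. For the difference between the injury responses no gene was called (0% of all genes). At an unadjusted p under 0.05 there were 5 chaperone genes in limma (8.21% of all genes) and 5 in edgeR. The edgeR and DESeq2 counts have no share of all genes beside them, so they are not read as particular to the chaperone genes.

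**Figure D4:**
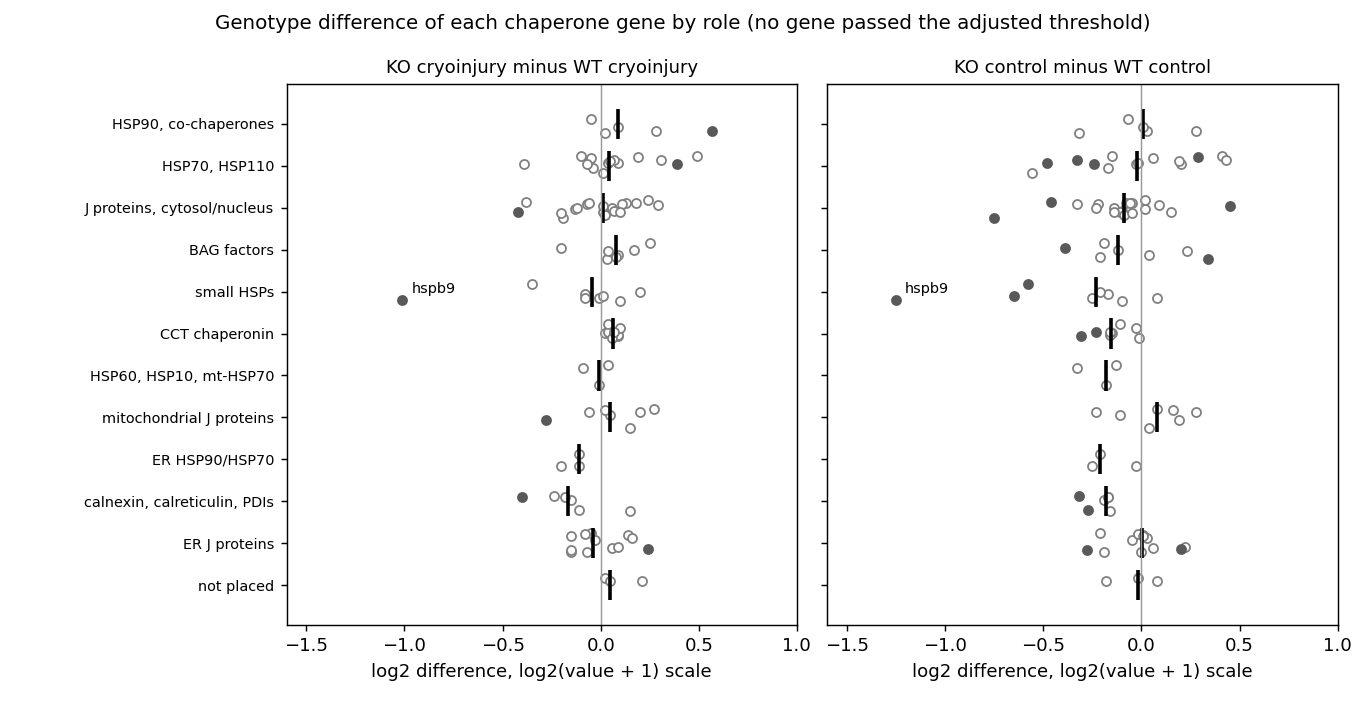
Difference between genotypes (log2, on the log2(value + 1) scale) for each of the 95 chaperone genes by role, in injured hearts (KO cryoinjury minus WT cryoinjury, left) and in control hearts (KO control minus WT control, right). Grey filled points have an unadjusted p under 0.05, open points do not, and black bars are medians. No gene passed the adjusted threshold, and hspb9 lies lowest in both panels at -1.01 and -1.25.

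The gene with the smallest p between genotypes in control hearts was hspb9, at 0.971 ± 0.555 units in KO control and 3.59 ± 0.723 in WT control (SD, n = 4). The difference of -1.25 (SE 0.33) did not pass in limma (adjusted p = 0.0691) and passed in DESeq2 (-1.91, adjusted p = 0.00751), with a pseudocount of 0.5 (-1.54, adjusted p = 0.0379) and with the 8 control libraries alone (adjusted p = 0.0429). It also passed without KO cryoinjury libraries 1 and 2 together (adjusted p = 0.0366) or without KO cryoinjury library 4 alone (adjusted p = 0.0282). The KO control libraries held 3 to 10 reads of this gene each. In injured hearts hspb9 differed by -1.01 (SE 0.33, limma adjusted p = 0.214), and by -1.37 (adjusted p = 0.0449) without KO cryoinjury library 4, its highest KO library. The next smallest p in control hearts were those of hspa4 (ENSDARG00000018989), with a difference of -0.24 (limma adjusted p = 0.109), and hspb9l, with -0.65 (limma adjusted p = 0.124).

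In injured hearts the smallest p belonged to hsp90aa1, higher by 0.57 in KO cryoinjury (SE 0.17, limma adjusted p = 0.18). Its 4 KO cryoinjury libraries, at 64.4, 69.7, 68.3 and 74.1 units, lay above the 4 WT cryoinjury libraries, at 54.8, 48.5, 42.8 and 40.3 units. The gene pdia7 differed by -0.40 (limma adjusted p = 0.205), with 47.3, 52.9, 66.3 and 51.3 units in KO cryoinjury and 69.4, 67.7, 76 and 73.5 in WT cryoinjury. For the responses, the smallest p after that of dnajc4 were those of bag6 (ENSDARG00000075892; interaction 0.29, limma adjusted p = 0.567) and hspb9l (0.67, limma adjusted p = 0.591).

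Differences that missed the threshold still had a size and a spread. In control hearts the ER median was -0.16 and the cytosolic median -0.11, against -0.01 over all genes. Averaged over ER genes, libraries differed from the WT control mean by -0.14 to -0.06 in KO control and -0.16 to 0.17 in WT control. Over cytosolic genes the differences were -0.28 to -0.03 in KO control and -0.11 to 0.10 in WT control. The libraries of the groups thus overlapped in both averages, but not in every family. Over the genes grouped with the small heat shock proteins they spanned -0.64 to -0.26 in KO control and -0.08 to 0.07 in WT control. Over the foldase and lectin genes of the ER they spanned -0.26 to -0.19 and -0.14 to 0.20. In all other families the control groups overlapped, and these families were picked out after their values were seen. Genes measured in the same libraries are not replicates of a genotype. The chaperone genes hspb8, hspb9l and bag3 averaged 240 ± 62.6, 987 ± 288 and 245 ± 39 units in KO control, against 350 ± 32.1, 1516 ± 251 and 319 ± 30.7 in WT control (SD, n = 4), differences of -0.58, -0.65 and -0.39 (limma adjusted p = 0.143, 0.124 and 0.172). Other genes were higher in KO control. They included dnajc28, at 7.44 ± 0.928 against 5.93 ± 0.479 units in WT control, and hspa12b, at 128 ± 10.9 against 105 ± 14.7. In injured hearts the medians were -0.11 for the ER, 0.04 for the cytosol and 0.03 for mitochondria, against 0.00 over all genes. The genotype and injury comparisons share the control and injured libraries, so their values are not independent of each other. Among genes outside the symbol rule, 3 list members were called lower in KO control than in WT control, the HSP90-binding immunophilin gene fkbp5 (-2.09, limma adjusted p = 0.0185), xbp1 (-0.49, limma adjusted p = 0.0342) and ppib (-0.28, limma adjusted p = 0.042). They were 1 each of lists of 12, 8 and 16 measured genes, and 0 were called in the lists of 13, 19 and 19. Over all genes 1.08% were called lower on the deposited scale. With library totals 0 genes were called lower in the lists of 8 and 16, so the calls of xbp1 and ppib ended. In the list of 12, which holds fkbp5, 1 was called lower there.

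Libraries within a group differed for the chaperone genes by about as much as for other genes. The pooled spread between libraries of a group, as an SD on the log2 scale, had a median of 0.19 over the ER genes, 0.21 over the cytosolic and 0.20 over the mitochondrial genes, against 0.21 over all genes. By family it was lowest for CCT (median 0.12) and highest for HSP70 (0.32) and the small heat shock proteins (0.31). The genes hspa2, hsp70.3 and hspa1b varied most, with SDs of 0.69, 0.66 and 0.60. Some libraries were often the lowest of their group over the 95 genes, though not in every family. Averaged over the CCT genes, WT control library 2 differed from the WT control mean by 0.08, the highest of its group. The count of lowest libraries was not made over all genes, so it is not read as a trait of the chaperone genes. KO cryoinjury library 1 was the lowest of its group for 49 of the 95 genes, KO control library 2 for 43, and WT control library 2 for 44, whereas no WT cryoinjury library was lowest for more than 28. In KO control library 2 the low genes included hspb8 (241, 158, 251 and 310 units over libraries 1 to 4) and dnajb4 (57.2, 37.4, 58.2 and 51.6). The gene dnajb4 read 33.2, 27.8, 58.4 and 51.6 units in KO cryoinjury, with libraries 1 and 2 again at the low end, and 51.2, 52.6, 61.4 and 49 in WT cryoinjury.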

How the data were processed

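Polyadenylated RNA from 16 libraries of pooled hearts was sequenced after TruSeq preparation, per the labels' protocols. CASAVA 1.8.2, cutadapt, RSEM 1.2.3 and genome build Zv9 appear in the submitters' processing notes. The authors deposited 1 table of normalized signal values for 14500 genes, whose method of scaling no header or label states. In every library the values were whole multiples of 1 step (tolerance 0.01 read), so reads were recovered from them.

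Symbols came from a reference name table, which matched 11702 identifiers. Log2(value + 1) was fitted with limma 3.58.1 (R 4.3.3) over all 16 libraries as 4 group means, with Benjamini-Hochberg adjustment over all genes. The fit was tested on simulated data. P-values measure the spread between libraries of pooled hearts. Alternatives were edgeR 4.0.16 and DESeq2 1.42.0 on recovered reads, other scalings and pseudocounts, a filter at a mean of 10 units, a replicate block, the 8 libraries compared alone, and left-out libraries.

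The genes named are a core of well-known chaperones, the 5 largest called rises and falls per compartment and injury comparison, the 3 smallest p where a genotype comparison called none, and up to 4 genes per pathway list with the smallest p in WT hearts. Others, such as ahsa1, bag3 and hspb8, were chosen after their values were seen. Members, roles and lists were chosen with earlier results of these data known. The scan for libraries standing apart and the alternatives were extended from the genes named by the rule to all 95 after a first pass.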

Additional observations from a re-analysis of the deposited data

Results flagged for a closer look

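In 28 of 380 groups of 4 libraries (95 genes in 4 groups), 1 library lay far from the other 3 by Dixon's test at 95%. Chance alone gives about 1 such group in 20. Values are normalized units, and no explanation was tested.

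In KO cryoinjury, the library standing apart was high for dnajc24 (library 2, 6.07 against 3.05 to 3.34) and dnajc10 (library 2, 30.5 against 29.6 to 29.7). In KO cryoinjury, the library standing apart was low for dnajc28 (library 1, 3.2 against 4.91 to 5.17), hsp70.3 (library 1, 12.8 against 27.7 to 30.4), bag2 (library 1, 15.7 against 24.1 to 25.9) and hsp70l (library 1, 38.6 against 60.4 to 62.2). In WT cryoinjury, the library standing apart was high for bag5 (library 1, 14.7 against 10.8 to 10.9), hsp70.3 (library 2, 42.6 against 19.4 to 21.9), ahsa1 (library 1, 21.2 against 14.3 to 14.5), tcp11l1 (library 1, 9.26 against 6.48 to 6.51) and dnajb12 (ENSDARG00000087473) (library 3, 7.86 against 4.5 to 5.04). In WT cryoinjury, the library standing apart was low for dnajc5gb (library 3, 16.2 against 19.2 to 19.7) and tcp11l2 (library 4, 90.2 against 101 to 103). In KO control, the library standing apart was high for dnajc5gb (library 4, 15.7 against 12.5 to 12.7), hsph1 (library 1, 14.3 against 10.1 to 10.4), dnajc4 (library 1, 27.2 against 24 to 24.2), cct5 (library 4, 219 against 170 to 172), dnaja3 (library 4, 60 against 29.5 to 31.7), dnajc10 (library 1, 26.4 against 19.6 to 20.6) and hspa2 (library 1, 91.1 against 43 to 49.6). In KO control, the library standing apart was low for dnajc5ga (library 2, 37.6 against 47.1 to 48.8), dnaja (library 2, 43.9 against 66.6 to 68.9), hspa1b (library 2, 7.67 against 18.6 to 19.8) and bag6 (ENSDARG00000077531) (library 4, 10.2 against 13 to 13.5). In WT control, the library standing apart was high for dnajb14 (library 1, 11.8 against 9.88 to 9.97) and dnajc12 (library 1, 20.7 against 16.4 to 16.9). In WT control, the library standing apart was low for dnajc24 (library 3, 5.28 against 7.59 to 8.04) and hspa13 (library 2, 17.1 against 27.8 to 29.2).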

How the results depend on the processing

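Over 199 gene changes and all alternatives, 4817 of 5145 values kept their direction and side of the threshold, 93 passed newly, 133 no longer passed and 102 changed sign. For an injury change, leaving out a library of the other genotype alters only the shared estimate of spread. Its direction could not change there, so part of the unchanged values is no check of direction. Depth limits the 9 genes with fewer than 20 reads in some library. With library totals the counts were 36 higher and 10 lower in WT hearts. Of the 102 sign changes, 45 came with library totals, of which 5 concerned called changes (stip1, dnaja2, dnajc11, dnajc5ga and bag6 (ENSDARG00000075892) in WT hearts) and 3 were called in that setting alone (cct6b and cct5 in WT hearts, dnajc1 in KO hearts). They were the injury change in KO hearts for cct8 (0.14), hspb1 (0.09), hspd1 (0.23), dnajc1 (0.20), stip1 (0.03), dnajc11 (0.06), bag1 (0.05), hsp70.3 (0.21), tcp11l2 (0.09), tcp11l1 (0.10), bag2 (0.14), dnajb12 (ENSDARG00000039363) (0.04), bag3 (0.23), hspa13 (0.14), bag4 (0.14), hspa14 (0.19), dnajc7 (0.20), dnajc16 (0.14), dnajb14 (0.09); and the injury change in WT hearts for cct8 (0.19), cct6b (0.34), hspb1 (0.11), cct5 (0.28), hspd1 (0.11), hspb9l (0.23), hspa4 (ENSDARG00000004754) (0.07), stip1 (0.07), dnaja2 (0.13), dnajc11 (0.03), bag5 (0.04), bag1 (0.11), hsp70.3 (0.20), dnajc4 (0.08), tcp11l1 (0.07), hspbap1 (0.15), dnajb12 (ENSDARG00000039363) (0.15), bag3 (0.17), hspa13 (0.33), dnajc5ga (0.00), dnajc7 (0.08), dnajc16 (0.13), dnajb14 (0.07), bag6 (ENSDARG00000075892) (0.10), bag6 (ENSDARG00000077531) (0.14), dnajb12 (ENSDARG00000087473) (0.01). Without KO cryoinjury libraries 1 and 2 the sign changed in the injury change in KO hearts for cct8 (0.01), hspb1 (0.06), hspd1 (0.14), dnajc1 (0.02), hsp70.3 (0.26), dnajc9 (-0.02), bag2 (0.10), dnajb4 (0.12), bag3 (0.29), hspa13 (0.06), hspa4l (-0.24), dnajc7 (0.18). With edgeR it changed in the injury change in KO hearts for hsp70.3 (0.01), bag3 (0.01), and with DESeq2 in the injury change in KO hearts for hsp70.3 (0.01), bag3 (0.01). The cause was not tested.

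Leaving out 1 library at a time, the counts in KO hearts ran from 22 to 29 higher and 21 to 28 lower, and in WT hearts from 14 to 19 higher and 26 to 33 lower. No share of all genes stands beside these counts, so they are not read as particular to the chaperone genes. The lower count between genotypes ran from 0 to 1 in injured hearts (hspb9) and from 0 to 1 in control hearts (dnajc10 without WT control library 2, hspb9 without KO cryoinjury library 4). Of 52 KO calls 41, and of 50 WT calls 37, held without any single library. Signs changed 41 times, in each case for a change called neither with all libraries nor in that fit, with ranges in KO hearts for hspd1 (-0.08 to 0.07), dnajc1 (-0.08 to 0.01), hsp70.3 (-0.22 to 0.27), bag2 (-0.27 to 0.07), bag3 (-0.11 to 0.11), hspa13 (-0.25 to 0.02), hspa4l (-0.06 to 0.38), hspa14 (-0.07 to 0.02), dnajc7 (-0.11 to 0.11), bag6 (ENSDARG00000075892) (0.00 to 0.07), and in WT hearts for tcp1 (-0.08 to 0.08), cct6b (-0.06 to 0.05), hspa8 (ENSDARG00000068992) (-0.07 to 0.12), cct2 (-0.03 to 0.23), hsp70.3 (-0.58 to 0.14), hspbap1 (-0.25 to 0.08), hspa13 (-0.19 to 0.09), dnajb9 (ENSDARG00000052072) (-0.09 to 0.20), hspa4l (-0.15 to 0.22), hspa12a (-0.03 to 0.09).

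The lower count in control hearts was 1 with a pseudocount of 0.5, with the 8 libraries compared alone, without KO cryoinjury libraries 1 and 2, and with DESeq2. With the replicate number as a block it was 3 (hspb9, hspb9l and hspb8). These counts, too, have no share of all genes beside them. Same-numbered libraries had correlations of deviations from -0.05 to 0.19 and no comparison had all 4 above 0.1. These values gave no clear sign that the numbers pair the libraries, but they cannot exclude it.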
